A study of Mus musculus with 20 samples.

Results

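The genes described here were 9 markers of the layers of the mouse neocortex, Cux1, Cux2, Rasgrf2, Rorb, Fezf2, Bcl11b, Tbr1, Foxp2 and Tle4. They were picked by symbol among the 24421 genes counted in every library, and all 9 were found and passed the filter on low counts in every comparison. RNA had been sequenced from the neocortex (NCX) and the hippocampus (HP) of mice aged 3 months, in 20 libraries that make 4 groups of 5 by genotype and region. cTKO mice (APP/APLP1/APLP2 -/- in the labels) carried floxed App, Aplp1 and Aplp2 (amyloid precursor protein and its homologs) together with Camk2a-Cre, a Cre recombinase that acts in excitatory neurons of the forebrain after birth. Controls were littermates with these floxed alleles and no Cre, which the labels call wild type, and both genotypes, of both sexes, were kept on a hybrid background of C57BL/6 J and 129. Whole tissue was used, so that every cell type adds to a value, and fewer cells of a type and less RNA per cell cannot be told apart.

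The neocortex is built of layers whose excitatory neurons differ in birth date, projections and transcription factors. Upper layer neurons project within the cortex, layer 4 neurons receive thalamic input, layer 5 holds the neurons that project to the brainstem and spinal cord, and layer 6 those that project to the thalamus. Cux1 and Cux2 encode homeodomain factors of upper layer neurons, and Rasgrf2 a Ras guanine nucleotide exchange factor found in layers 2 and 3. Rorb encodes an orphan nuclear receptor of layer 4. Fezf2 and Bcl11b (also called Ctip2) encode zinc finger factors that act in series in layer 5 subcerebral neurons. Tbr1, a T-box factor, Foxp2, a forkhead factor, and Tle4, a Groucho family corepressor, mark layer 6 corticothalamic neurons. These factors are set during development, so their level in adult tissue is commonly read as a check of which layers a sample holds. Several are used outside the neocortex as well, Bcl11b in hippocampal pyramidal and granule neurons and in striatal neurons, and Foxp2 in striatum and thalamus.

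Total counts per library lay between 12169474 and 25331954, so that 3 counts, taken as the smallest level a library can show, corresponded to 0.123 to 0.248 counts per 1000000 counts (CPM), a limit that covers counting error only. App, Aplp1 and Aplp2 fell in the cTKO groups of both regions, with no overlap of the genotypes, by log2 differences of -2.10 in the neocortex and -1.78 in the hippocampus for App, and between -1.25 and -1.93 for Aplp1 and Aplp2. The summed level of 11 hippocampal marker genes was 485 to 621 CPM in hippocampal libraries and 54.1 to 73.2 CPM in neocortical libraries, in the direction of the labels. The summed level of 11 striatal markers was 497 to 944 CPM in the neocortex and 160.5 to 241 CPM in the hippocampus. The cTKO neocortex library 5 and the cTKO hippocampus library 4 stood apart, with 298 and 189 CPM summed over 8 embryonic globin and Hox genes, where the other 18 libraries held 0.305 to 1.44 CPM. Values that rest on them are given with and without them below.

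Promoter sequences were read from RefSeq (GRCm38.p6) for 8 of the 9 genes, as the 250 bases before a start site. Those of 3 members are shown, in lower case from 5′ to 3′: the second start of Cux2, the member with the largest neocortical enrichment among the upper layer genes, Rasgrf2, the member with the largest genotype difference in the neocortex, and Tle4, whose level was alike in both regions of controls. They lie on the minus strand, at chr5:122047826-122048075 for Cux2, chr13:92131829-92132078 for Rasgrf2 and chr19:14598184-14598433 for Tle4, and the capitals in the Cux2 sequence mark the letters ATCGAT.
Cux2: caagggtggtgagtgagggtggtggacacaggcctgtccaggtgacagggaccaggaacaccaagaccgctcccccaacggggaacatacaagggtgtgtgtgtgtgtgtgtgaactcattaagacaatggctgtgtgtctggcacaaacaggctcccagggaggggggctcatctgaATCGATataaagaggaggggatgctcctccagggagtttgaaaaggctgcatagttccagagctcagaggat
Rasgrf2: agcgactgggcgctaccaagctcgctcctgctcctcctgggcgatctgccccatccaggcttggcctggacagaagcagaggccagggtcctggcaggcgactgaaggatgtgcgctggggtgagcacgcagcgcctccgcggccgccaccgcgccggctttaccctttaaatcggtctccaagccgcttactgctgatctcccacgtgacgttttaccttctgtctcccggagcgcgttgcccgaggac
Tle4: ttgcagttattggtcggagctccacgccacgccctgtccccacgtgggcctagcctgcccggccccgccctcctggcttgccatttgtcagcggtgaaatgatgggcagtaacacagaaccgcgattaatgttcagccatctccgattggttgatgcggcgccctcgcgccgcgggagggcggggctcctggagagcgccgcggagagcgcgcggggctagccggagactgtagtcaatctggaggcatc
The Cux2 stretch shown held 55.2% G and C bases and 3 CpG pairs. Those of Rasgrf2 and Tle4 both held 65.2% G and C with 22 and 24 CpG pairs, beside medians of 52.4% and 6 over 32851 promoters. Starts of one gene differed: the first start of Cux2, not shown, held 80% G and C with 40 CpG pairs. The second start of Tle4, also not shown, held 70.8% with 35. Letters that fit the factors encoded by the members were searched on both strands: AGGTGT for T-box factors, AGGTCA for nuclear receptors such as Rorb, ATCGAT for Cux factors and TGTTTAC for forkhead factors. ATCGAT, held by 0.728% of all promoters, was found only before the second start of Cux2, 72 bases ahead of it. TGTTTAC, held by 3.17%, was found only before Cux1, and AGGTGT (11.8% of promoters) and AGGTCA (14%) were found in none of the promoters of the 8 members. None of these matches is known here to be a bound site.

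The first comparison asked where the layer genes stand in the neocortex against the hippocampus, a cortical structure without these 6 layers. In controls, 7 of the 9 members differed between the regions (edgeR's quasi-likelihood test, Benjamini-Hochberg adjusted p, FDR, under 0.05), 6 higher and 1 lower in the neocortex. Of all 14192 genes tested, 51.1% differed by that rule 24.8% being higher and 26.3% lower in the neocortex. The median log2 difference was 1.34 over the members and -0.02 over all genes tested. The study names different RNA extraction kits for the 2 tissues, so that kit and region cannot be told apart. Levels are given in CPM after TMM scaling, and the positions of genes are those of RefSeq on GRCm38.

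Among the upper layer genes, Cux2 had the widest gap. In control neocortex its libraries held 99.3, 83.3, 90.0, 95.9 and 98.1 CPM, and in control hippocampus 17.8, 17.3, 18.1, 15.0 and 15.6 CPM. Every neocortical library was thus above every hippocampal library, with a log2 difference of 2.48 (SE 0.11, FDR 2.1e-13), or 5.57-fold. Cux2 lies on chromosome 5 from 121857962 to 122050415. Its paralog Cux1, on chromosome 5 from 136248135 to 136567590, where it spans the microRNA gene Mir721, was measured at 136, 132, 124, 133 and 129 CPM in control neocortex. The hippocampal controls held 46.3, 47.7, 51.1, 46.3 and 53.1 CPM of Cux1, well apart from the neocortex, and the log2 difference was 1.42 (SE 0.07, FDR 1.79e-12). Rasgrf2, on chromosome 13 from 91880407 to 92131828, held 257, 222, 232, 241 and 241 CPM in control neocortex against 95.7, 105, 101, 119 and 125 CPM in control hippocampus. Its groups did not overlap either, and its log2 difference of 1.13 (SE 0.10, FDR 9.84e-09) was the smallest of the 3 upper layer genes. Rorb, the layer 4 receptor on chromosome 19 from 18930609 to 19111196, held 65.5, 54.1, 62.2, 55.4 and 54.8 CPM in control neocortex. In control hippocampus it held 22.6, 25.2, 24.4, 18.0 and 24.7 CPM, all below the lowest neocortical library, with a log2 difference of 1.34 (SE 0.10, FDR 1e-09).

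The deep layer genes divided. Tbr1, on chromosome 2 from 61802863 to 61814114, held 242, 246, 261, 236 and 238 CPM in control neocortex and 63.7, 63.3, 58.1, 77.5 and 72.0 CPM in control hippocampus. The regions were fully apart for this layer 6 factor, at a log2 difference of 1.87 (SE 0.14, FDR 5.29e-10). Foxp2, on chromosome 6 from 14901349 to 15441977, was the member with the lowest level, at 20.9, 21.3, 22.6, 20.2 and 16.3 CPM in control neocortex. Its hippocampal values of 4.42, 1.63, 2.62, 1.49 and 1.36 CPM were all below these but varied over 3-fold among themselves, with a coefficient of variation of 55.7%. Foxp2 had the largest region difference of the 9, 3.14 on the log2 scale, and also the largest error (SE 0.36, 95% interval 2.38 to 3.89, FDR 3.91e-07). In controls, all 11 striatal markers were also called higher in the neocortex (24.8% of all genes), at a median log2 difference of 2.82. The part of striatal tissue in the Foxp2 values was not tested. Bcl11b, on chromosome 12 from 107910403 to 108004145, went the other way. Control neocortex held 124, 128, 123, 119.9 and 108 CPM and control hippocampus 206, 203, 202, 231 and 259.5 CPM. Every hippocampal library was above every neocortical library, a log2 difference of -0.87 (SE 0.09, FDR 4.47e-08).

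The remaining pair did not differ between the regions of controls by this test. Fezf2, on chromosome 14 from 12338992 to 12346803, held 49.98, 47.5, 49.4, 47.5 and 49.1 CPM in control neocortex, the narrowest spread of any member (coefficient of variation 2.34%). The hippocampal controls ranged around these values, at 68.9, 53.7, 47.4, 60.2 and 62.0 CPM, and the log2 difference was -0.26 (95% interval -0.56 to 0.03, FDR 0.124). Tle4, on chromosome 19 from 14448072 to 14598183, held 60.0, 57.5, 62.5, 48.2 and 52.7 CPM in control neocortex. In control hippocampus it held 61.1, 59.2, 55.1, 61.6 and 51.2 CPM, within the same range, and the log2 difference of -0.04 had a 95% interval of -0.21 to 0.13 (FDR 0.722). Groups did not overlap for 7 of the 9 members, as for 43.5% of all genes tested.

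In cTKO mice the region difference kept its direction for each member. All 9 members passed the threshold there, 6 higher and 3 lower in the neocortex, where 49.6% of all genes tested did so (23.8% higher and 25.8% lower), and 7 did not overlap (28.5% of all genes). The log2 differences were 2.52 for Cux2, 1.25 for Cux1, 1.196 for Rasgrf2, 1.38 for Rorb, 2.09 for Tbr1, 2.75 for Foxp2 and -0.86 for Bcl11b. That of Foxp2 ranged from 2.72 to 3.14 over the alternatives other than single libraries left out. Without the 2 libraries with embryonic transcripts, the cTKO means of Foxp2 were 20.3 CPM in the neocortex and 2.33 CPM in the hippocampus. Both members that had missed the threshold in controls were called lower in the neocortex of cTKO mice, Fezf2 by -0.39 (SE 0.14, FDR 0.0253) and Tle4 by -0.34 (SE 0.08, FDR 0.00142), although the libraries of the 2 regions overlapped for both. The call of Fezf2 was lost in a fit of the 10 cTKO libraries alone (FDR 0.0945) and on leaving out hippocampal library 3 (FDR 0.107), neocortical library 1 (FDR 0.0937) or neocortical library 5 (FDR 0.0732) of the cTKO group. In a fit of the 10 control libraries alone Fezf2 was called lower in the neocortex (log2 difference -0.26, FDR 0.0119), so that the contrast of the genotypes for Fezf2 turned with the libraries fitted.

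**Figure D1:**
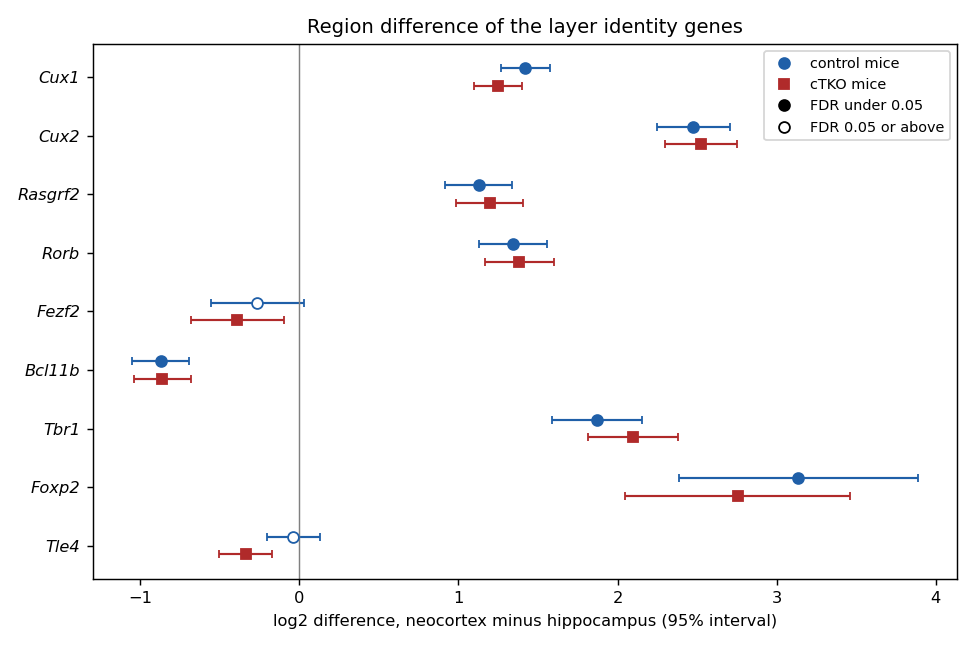
Log2 difference between neocortex and hippocampus (x axis, neocortex minus hippocampus) of each layer identity gene, with 95% intervals, in control mice (blue circles) and cTKO mice (red squares). Filled symbols have an FDR under 0.05. In both genotypes 6 genes lie to the right of 0, Bcl11b lies near -0.87, and Fezf2 and Tle4 lie nearest to 0.

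Divided by the length of their exons (GENCODE vM21), the members could be set beside each other. In control neocortex the order of mean levels, in CPM per kilobase, was Tbr1 at 44.6, Rasgrf2 at 25.8, Fezf2 at 16.0, Bcl11b at 14.9, Tle4 at 9.85, Cux2 at 9.26, Cux1 at 6.54, Rorb at 5.27 and Foxp2 at 1.24. Fezf2 overlapped its neighbour Bcl11b over libraries, as Tle4 did Cux2, and the other neighbours in the order were apart. In control hippocampus Bcl11b led at 27.2 CPM per kilobase, followed by Fezf2 at 19.2, Tbr1 at 12.2, Rasgrf2 at 11.8 and Tle4 at 10.1, of which Tbr1 overlapped Rasgrf2 and Rasgrf2 overlapped Tle4. Cux1, Rorb, Cux2 and Foxp2 closed the hippocampal order at 2.44, 2.08, 1.66 and 0.141 CPM per kilobase, and of these Rorb overlapped Cux2. By this measure the layer 5 factors headed the hippocampal order, whereas the layer 6 factor Tbr1 headed that of the neocortex. The lengths joined all annotated exons of a gene, and which transcripts were expressed was not tested. Without the division, Fezf2 at 58.5 CPM stood below Rasgrf2 at 109 CPM and Tbr1 at 66.9 CPM in control hippocampus.

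The second comparison asked whether the loss of the APP family went along with another layer make-up of the neocortex. None of the 9 members passed an FDR of 0.05 there, where 26 of 13843 genes did (0.188%). At an unadjusted p under 0.05 there were 2 members, Rasgrf2 and Cux1, where 10.4% of all genes passed, and these were also the 2 members whose genotypes did not overlap (2.39% of all genes), both lower in cTKO neocortex (1.6% of all genes). DESeq2 and edgeR's likelihood ratio test each called 1 member, Rasgrf2, where they called 1.6% and 1.21% of all genes. The median log2 difference of the members was -0.04, against 0.01 over all genes tested.

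Rasgrf2 held 180.1, 189, 174, 216 and 206 CPM in cTKO neocortex, and its highest library there was below the lowest control library at 222 CPM. The mean was 193 ± 17.8 CPM (SD, n = 5) against 239 ± 13.0 CPM in controls, a log2 difference of -0.30 (SE 0.07, 95% interval -0.44 to -0.15). Its FDR was 0.110 in the quasi-likelihood test, with a range of 0.00561 (DESeq2) to 0.321 over the alternatives, and 0.0465 when cTKO library 5 was left out. Cux1 was measured at 118, 123, 112, 122 and 116 CPM in cTKO neocortex, all below the lowest control library at 124 CPM. The gap was narrow, with means of 118 ± 4.61 and 131 ± 4.49 CPM and a log2 difference of -0.14 (SE 0.05, FDR 0.344). Its paralog Cux2 lay on the other side of 0, at 114, 89.9, 112, 102 and 92.4 CPM, overlapping the controls, with a log2 difference of 0.14 (SE 0.08, 95% interval -0.03 to 0.30, FDR 0.573). Whether the upper layer genes differed from each other was not tested.

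The ranges of some cell type markers were also shifted between the neocortical genotypes, with no gene of these lists called. The summed level of 7 interneuron markers was 1177 to 1222 CPM in cTKO libraries 1 to 4 and 948 CPM in library 5, against 922 to 1053 CPM in controls. That of 5 excitatory neuron markers was 8079 to 8889 CPM in 4 cTKO libraries and 10347 CPM in library 3, against 9161 to 10282 CPM in controls, although 4 of these 5 genes had estimates above 0 and Camk2a, which held most of the sum, stood at -0.32 (FDR 0.162). The part of these shifts in the values of Rasgrf2, Cux1 and the other members was not tested.

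Rorb held 46.7, 49.8, 53.1, 56.1 and 55.5 CPM in cTKO neocortex, with 3 libraries below every control library and 2 within the range of the controls. Its log2 difference was -0.15 (95% interval -0.31 to 0.004, FDR 0.496). Fezf2 held 33.0, 40.8, 55.7, 43.8 and 35.7 CPM, where the controls were packed between 47.5 and 49.98 CPM. Of the cTKO libraries 4 were below all controls and library 3 was above them, and the log2 difference was -0.21 (95% interval -0.46 to 0.03, FDR 0.542). It was -0.14 without cTKO library 1 and -0.34 (FDR 0.0677) without cTKO library 3.

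Bcl11b was at 114, 142, 107, 110.2 and 110.1 CPM in cTKO neocortex, with library 2 above every other neocortical library of either genotype. This library also held the highest summed level of striatal markers, 944 CPM, where the other 9 neocortical libraries held 497 to 787 CPM, and the part of striatal tissue in its Bcl11b value was not tested. The log2 difference of Bcl11b was -0.04 (95% interval -0.21 to 0.13, FDR 0.911), and between -0.12 and -0.01 with each library left out in turn. Tbr1 ranged widely, at 187, 234, 276, 281 and 246 CPM, on both sides of the controls, and its mean of 245 ± 37.9 CPM was close to that of controls (244 ± 9.87 CPM, log2 difference 0.01, 95% interval -0.19 to 0.21). Tle4 held 58.1, 60.7, 48.6, 57.8 and 60.7 CPM in cTKO neocortex, all within the range of the controls (log2 difference 0.04, 95% interval -0.14 to 0.21, FDR 0.923).

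Foxp2 was raised by 1 library. It held 21.5, 25.0, 17.8, 16.8 and 36.8 CPM in cTKO neocortex, and the highest value came from library 5, the library with embryonic globin and Hox transcripts. With that library the log2 difference was 0.22 (95% interval -0.17 to 0.61, FDR 0.724), and without it 0.01 (FDR 0.991), with a mean of 20.3 ± 3.71 CPM (SD, n = 4) against 20.3 ± 2.36 CPM in controls. Over the 9 members, the 95% intervals of the genotype difference in the neocortex stayed between -0.46 and 0.61 on the log2 scale, and between -0.46 and 0.30 without Foxp2.

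**Figure D2:**
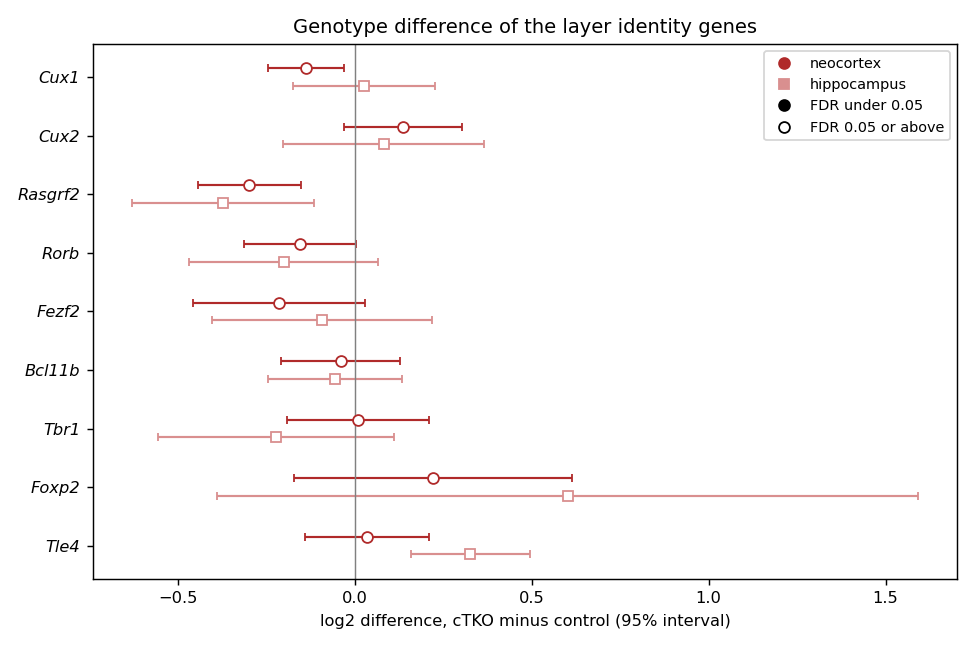
Log2 difference between cTKO and control mice (x axis, cTKO minus control) of each layer identity gene, with 95% intervals, in the neocortex (dark red circles) and the hippocampus (light red squares). All symbols are open, since no FDR was under 0.05. The interval lies wholly to one side of 0 for Rasgrf2 in both regions, for Cux1 in the neocortex and for Tle4 in the hippocampus.

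In the hippocampus, 0 of the 9 members differed between genotypes in the quasi-likelihood test, where 67 of 13702 genes did (0.489%), and 2 members, Tle4 and Rasgrf2, had an unadjusted p under 0.05 (12% of all genes). DESeq2 and the likelihood ratio test each called 1 member, Tle4, where they called 2.42% and 1.89% of all genes. No member was without overlap between genotypes, as 3.01% of all genes were. Tle4 was at 76.2, 75.9, 60.7, 75.0 and 72.4 CPM in cTKO hippocampus, where 4 libraries were above every control and library 3 lay within the controls, whose highest value was 61.6 CPM. The means were 72.0 ± 6.50 and 57.6 ± 4.41 CPM (SD, n = 5), a log2 difference of 0.33 (SE 0.08, 95% interval 0.16 to 0.49, FDR 0.0993). Its FDR was 0.0126 with DESeq2, 0.0167 with the likelihood ratio test, 0.0429 in one fit of all 20 libraries and 0.0313 without cTKO library 3. The highest FDR was 0.238 with single libraries left out and 0.172 over the other alternatives.

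Rasgrf2 was at 66.9, 94.4, 71.3, 83.5 and 104 CPM in cTKO hippocampus, with 4 libraries below the lowest control library at 95.7 CPM and library 5 among the controls. As in the neocortex its estimate was below 0, -0.37 (SE 0.12, 95% interval -0.63 to -0.12, FDR 0.228). Tbr1 held 44.1, 71.8, 40.4, 57.8 and 71.5 CPM, of which 3 lay below every control library and 2 among the controls (log2 difference -0.22, FDR 0.631, and between -0.32 and -0.12 with single libraries left out). Fezf2 held 51.8, 53.5, 73.3, 38.3 and 56.1 CPM (log2 difference -0.09, FDR 0.868), reaching above and below the controls, and its lowest value was that of library 4, which stood apart by its embryonic transcripts.

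Cux1 was at 55.0, 39.7, 48.0, 56.9 and 48.7 CPM in cTKO hippocampus, spread to both sides of the controls (log2 difference 0.03, 95% interval -0.17 to 0.23). Cux2 held 23.0, 13.6, 18.6, 14.6 and 18.5 CPM, again to both sides (0.08, 95% interval -0.20 to 0.37). Rorb held 19.7, 15.8, 24.0, 18.1 and 22.2 CPM, at -0.20 (95% interval -0.47 to 0.07, and between -0.28 and -0.13 with single libraries left out). The genotypes overlapped for all 3, and each FDR was at least 0.571. Bcl11b, the member with the highest hippocampal level per length, held 185, 218, 198, 216 and 239 CPM, with 2 libraries just below the controls and 3 among them (log2 difference -0.06, 95% interval -0.25 to 0.13, FDR 0.869). Foxp2 held 1.56, 3.09, 2.47, 8.14 and 2.21 CPM, and its highest library was library 4, the hippocampal library with embryonic transcripts. The log2 difference of Foxp2 was 0.60 (95% interval -0.39 to 1.59, FDR 0.673) with that library and 0.01 (FDR 0.995) without it, and the mean of the other 4 was 2.33 ± 0.634 CPM against 2.30 ± 1.28 CPM in controls.

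**Figure D3:**
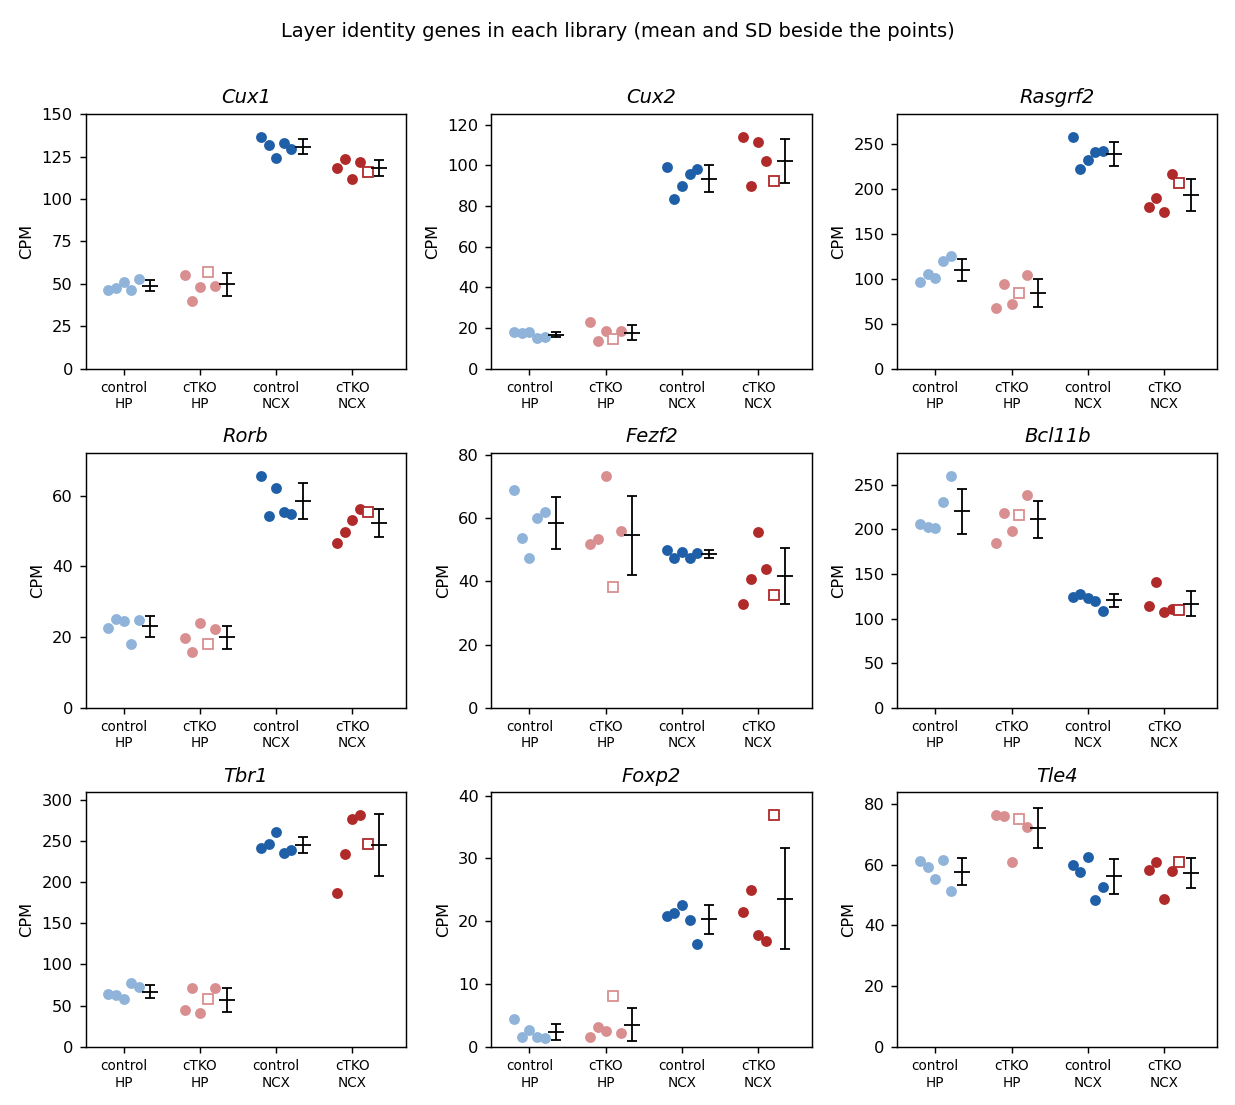
CPM (y axis, linear, from 0) of the 9 layer identity genes in each of the 20 libraries, by genotype and region, with library 1 to 5 from left to right in each group and the mean and SD (n = 5) beside it. Open squares are the 2 libraries with embryonic globin and Hox transcripts. They hold the highest Foxp2 of their groups, at 36.8 and 8.14 CPM, and Rasgrf2 and Cux1 are the genes whose neocortical genotypes do not overlap.

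The difference of the genotype effect between the regions was tested in one fit of all 20 libraries, and no member passed the threshold, as 0.0564% of all genes did. DESeq2 also called 0 members, and 1 had an unadjusted p under 0.05 (3.75% of all genes). This was Tle4, whose genotype difference was 0.30 lower on the log2 scale in the neocortex than in the hippocampus (95% interval -0.54 to -0.06, edgeR FDR 0.9999). For Rasgrf2, which had its lower estimates in both regions, the difference between regions was 0.07 (95% interval -0.23 to 0.36). The libraries of cTKO mice varied more than those of controls, by the coefficient of variation, for 7 of the 9 members in the neocortex and 8 in the hippocampus. This was close to the share over all genes, 70.4% and 74.4%, and is not particular to the layer genes.

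To set layers against each other within a library, the mean log2 CPM of the 5 deep layer members (Fezf2, Bcl11b, Tbr1, Foxp2 and Tle4) was subtracted from that of the 3 upper layer members (Cux1, Cux2 and Rasgrf2). The differences were 1.08, 0.92, 0.89, 1.125 and 1.18 in control neocortex and 1.13, 0.81, 0.93, 1.06 and 0.82 in cTKO neocortex. The genotypes overlapped, with means of 1.04 ± 0.13 and 0.95 ± 0.14 (SD, n = 5), so that upper layer genes stood 0.09 lower against deep layer genes in cTKO neocortex, less than the SD of either group. This difference was -0.05 without cTKO library 5, between -0.13 and -0.05 with single libraries left out, and -0.21 with the median over the members of a layer group. In the hippocampus the values were -0.15, 0.26, 0.24, 0.12 and 0.28 in controls and 0.32, -0.30, 0.03, -0.26 and 0.06 in cTKO mice, again with overlap. All hippocampal values were below all neocortical values, and the regions of controls differed by 0.89, or by 1.53 with the median in place of the mean.

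**Figure D4:**
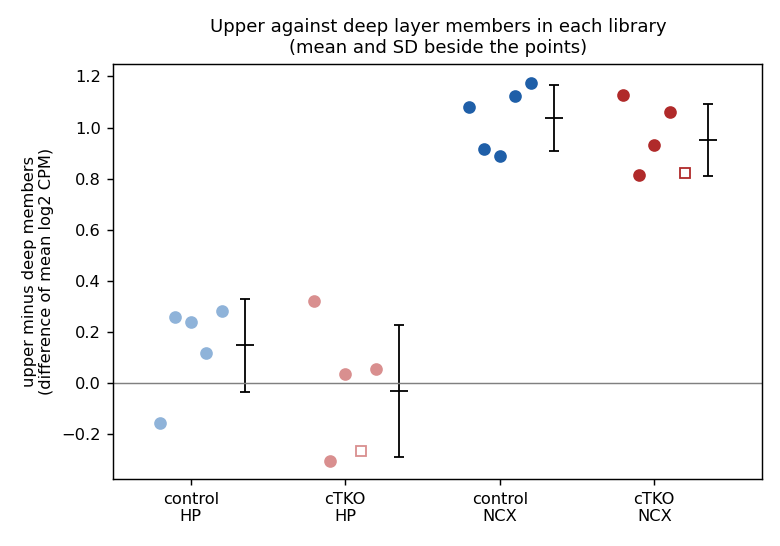
Upper minus deep layer members, as the difference of mean log2 CPM (y axis), in each library, by genotype and region, with the mean and SD (n = 5) beside the points. Open squares are the 2 libraries with embryonic transcripts. Neocortical libraries lie between 0.81 and 1.18 with both genotypes mixed, and hippocampal libraries between -0.30 and 0.32.

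Other genes used as layer markers were counted in the same fits. In the neocortex, 0 of 12 other layer 2 and 3 genes, 0 of 5 layer 4 genes, 0 of 14 layer 5 genes, 1 of 8 layer 6 genes and 0 of 5 layer 6b genes were called between genotypes, and at an unadjusted p under 0.05 the counts were 6, 1, 2, 4 and 2. Over all genes tested, 0.188% were called and 10.4% had an unadjusted p under 0.05. The median log2 differences were -0.13, -0.06, -0.09, 0.22 and 0.09 in that order, against 0.01 over all genes. The gene called was Sulf1, a heparan sulfate 6-O-endosulfatase, at 35.8 ± 7.61 CPM in cTKO and 21.1 ± 1.47 CPM in control neocortex (SD, n = 5), a log2 difference of 0.77 (SE 0.13, FDR 0.0352) without overlap. The call of Sulf1 was lost with RIN as a covariate (FDR 0.0983), under the replicate block (FDR 0.0823), in one fit of all 20 libraries (FDR 0.543) and on leaving out any of 8 of the 10 libraries (FDR up to 0.130), all but cTKO libraries 3 and 5. Layer 6 genes named for a region difference were Syt6, a synaptotagmin, at 0.43 (SE 0.11, FDR 0.143), and Ntsr1, a neurotensin receptor, at 0.22 (FDR 0.599). The layer 2 and 3 gene with the lowest estimate, chosen after its values were seen, was Otof (otoferlin), at -0.70 (SE 0.17, FDR 0.141), without overlap between genotypes. Of the 12 genes of that list, 10 had estimates below 0 and 2 above 0, the highest at 0.75.

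In the hippocampus, 1 of the 12 other layer 2 and 3 genes, 1 of the 8 layer 6 genes and none of the layer 4, 5 and 6b genes were called between genotypes by edgeR. Over all genes tested there, 0.489% were called. Lamp5, a lysosome associated membrane protein of neurons, was at 27.6 ± 2.84 CPM in cTKO and 39.6 ± 3.89 CPM in control hippocampus, a log2 difference of -0.52 (SE 0.09, FDR 0.0204) without overlap. The call was lost with RIN as a covariate (FDR 0.0508) and on leaving out control library 1, 4 or 5 or cTKO library 2, with FDR between 0.0517 and 0.0683. The neocortical levels of Lamp5 were 166 ± 38.6 CPM in cTKO mice and 232 ± 17.2 CPM in controls, with overlap. Their log2 difference was -0.47 (SE 0.13, FDR 0.187). Rprm, which encodes reprimo, a p53 target that marks layer 6 in the neocortex, rose to 76.7 ± 26.6 CPM in cTKO hippocampus from 22.6 ± 1.96 CPM in controls, a log2 difference of 1.77 (SE 0.21, FDR 0.00274). In the neocortex Rprm stood at 51.5 ± 9.40 and 44.6 ± 2.34 CPM, a log2 difference of 0.22 (FDR 0.501), and its genotype difference differed between the regions by -1.56 (SE 0.26, FDR 0.0146), a call that was kept under all 9 alternatives and with each of the 20 libraries left out. At an unadjusted p under 0.05 there were 6 layer 2 and 3 genes, 2 layer 4 genes, 9 layer 5 genes, 3 layer 6 genes and 0 layer 6b genes in the hippocampus, where 12% of all genes passed, and the median log2 difference of the 14 layer 5 genes was -0.25. Between the regions of controls, 6 of these 14 genes were called higher and 7 lower in the neocortex (24.8% and 26.3% of all genes). Of the 12 layer 2 and 3 genes, 5 were called higher and 4 lower there.

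**Figure D5:**
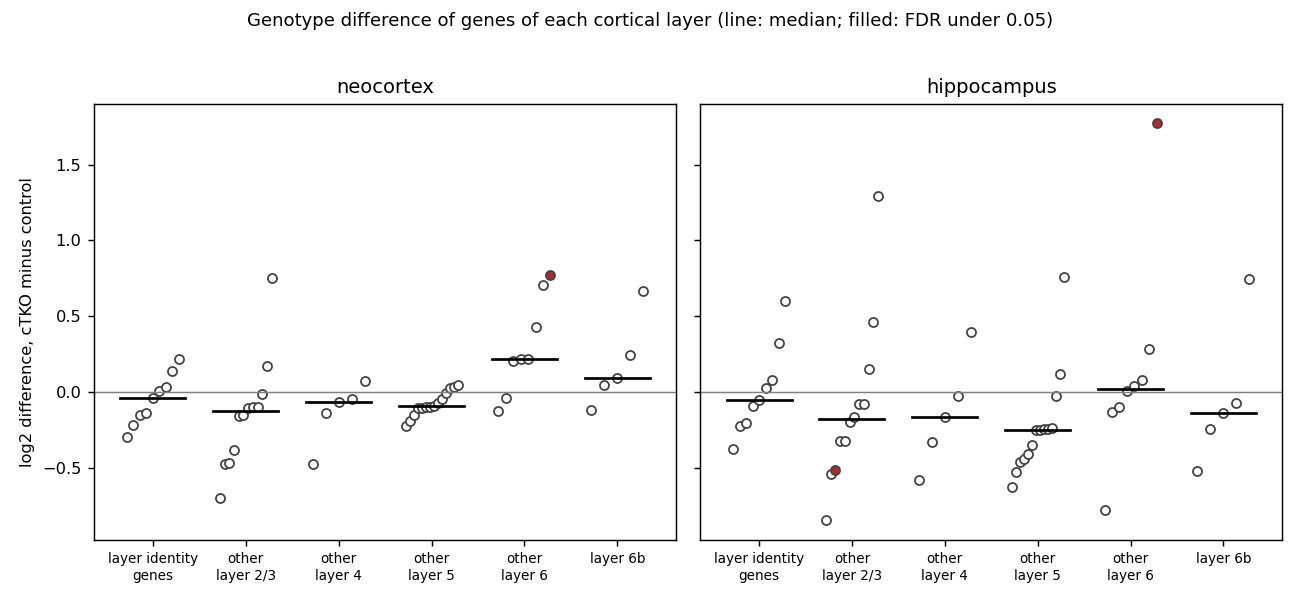
Log2 difference between cTKO and control mice (y axis) of the 9 layer identity genes and of other genes of each cortical layer, 1 point per gene, in the neocortex (left) and the hippocampus (right). Lines are medians and filled points have an FDR under 0.05. These are Sulf1 among the layer 6 genes in the neocortex, and Lamp5 (layer 2 and 3) and Rprm (layer 6) in the hippocampus.

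Lists of regulators and paralogs added no call between genotypes. Of 21 regulators of cortical projection neuron identity, 0 were called in either region (0.188% of all genes in the neocortex and 0.489% in the hippocampus). An unadjusted p under 0.05 was held by 4 and 3 in the neocortex and the hippocampus, where 10.4% and 12% of all genes passed. Among the regulators, Mef2c, an activity-dependent transcription factor, was 2.62 higher on the log2 scale in control neocortex than in control hippocampus (SE 0.08, FDR 1.17e-15). Of the 10 paralogs of members that were tested, 0 were called between genotypes in either region. An unadjusted p under 0.05 was held by 1 and 3, beside the same shares of 10.4% and 12%. Rora, the paralog of Rorb, was at -0.24 (SE 0.08, FDR 0.264) in the neocortex, where its genotypes did not overlap, and was 1.22 higher in control neocortex than in control hippocampus. The lists of marker genes of excitatory neurons, interneurons, glia, endothelium, striatum, thalamus, hippocampus and choroid plexus held 0 genes called between genotypes by edgeR in either region, and 7 of 59 and 20 of 60 tested had an unadjusted p under 0.05 in the neocortex and the hippocampus, where 10.4% and 12% of all genes did. In the hippocampus, the choroid plexus sum ranged from 75.5 to 2684 CPM over control and from 112 to 598 CPM over cTKO libraries, and the astrocyte sum from 1891 to 2399 and from 1863 to 4753 CPM. The interneuron sum was 737 to 931 CPM in control and 815 to 1050 CPM in cTKO hippocampus, and the excitatory sum 10750 to 12203 and 9303 to 11613 CPM. The part of these markers in the hippocampal values of the members was not tested.

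For the 6 members with a region difference over 1 on the log2 scale, either way, the genes whose levels were most alike over the 20 libraries were found by the root mean square difference of centred log2 CPM, among 14191 genes. This is a description, and the libraries share both the region and the depth. Cux1 was nearest to Asap1 (0.129) and Nlk (0.135), and Rorb to Hivep1 (0.148) and again Asap1 (0.151). Rasgrf2 was nearest to Plch1 (0.142) and Scn1a (0.162), and Cux2 to AI414108 (0.198) and C130074G19Rik (0.1995). Tbr1 was nearest to Osbpl3 (0.224) and Plcxd2 (0.226), and Foxp2, the least precisely measured, to Vill (0.473) and Sema3a (0.483).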

How the data were processed

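RNA-seq of 2 brain regions and 2 genotypes was used, 20 libraries in groups of 5, as the labels give them. The authors mapped reads to mm10 with STAR (2.5.4a per the labels), assigned them to genes with HTSeq and deposited unnormalized counts per gene symbol, and columns of other samples numbered 0. The strand setting and the annotation are not given in the sources used here, so reads of overlapping genes could have been counted on either gene. The methods take both regions from 5 mice per genotype but do not tie a library number to a mouse.

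Counts were normalized by TMM and tested with edgeR 4.0.16 in R 4.3.3 (estimateDisp, glmQLFit, glmQLFTest), over genes that exceeded a CPM of 1 in 5 or more libraries of a fit. The genotypes were compared within each region (10 libraries), and the regions and the interaction in one fit of 4 group means over 20 libraries. P-values were adjusted by Benjamini-Hochberg over all genes tested, and an FDR under 0.05 was called. Single-library log2 CPM used a prior count of 2, and 95% intervals the moderated error of the fit. Total counts ranged from 12169474 to 25331954. No pair of libraries within a group agreed within sampling noise (chi-square per degree of freedom at least 3.82).

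Alternatives were DESeq2 1.42.0 (Wald test, no independent filtering), the likelihood ratio test, a robust fit, the size factors of DESeq2, no filter, RIN or Xist as a covariate, a replicate block, other sets of libraries, and each library left out. RIN values came from the supplement of the study. The procedures were tested on simulated data. The members and lists were chosen with earlier results of these data known. Genes named outside the members were those of a list called between genotypes, the 2 per list with the largest region difference, and the 2 most alike to a member, and other names were added after their values were seen. The result of 1 gene that this rule names is not reported here. The alternatives for Lamp5, Sulf1 and Rprm were chosen after seeing the data. Figures were drawn with matplotlib.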

Additional observations from a re-analysis of the deposited data

Results flagged for a closer look

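Of 36 groups of 5 libraries, made by 9 members in 4 groups, 3 held a library whose log2 CPM was far from the other 4 by Dixon's criterion, which chance meets in about 1 of 20 groups. Bcl11b was at 7.15 in cTKO neocortex library 2, where the others lay between 6.75 and 6.83. Tle4 was at 5.93 in cTKO hippocampus library 3 (others 6.18 to 6.25) and at 5.61 in cTKO neocortex library 3 (others 5.86 to 5.93). The region by genotype interaction was called for 0 members by edgeR and by DESeq2.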

How the results depend on the processing

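The direction of the region difference of each member was kept under all alternatives other than single libraries left out, and 7 members in controls and 9 in cTKO mice were called, with 8 and 8 in fits of the 10 libraries of one genotype, in which Fezf2 was called in controls and not in cTKO mice. Between genotypes the count of members called, 0, became 1 in the neocortex with DESeq2, with the likelihood ratio test and without the library with embryonic genes, and 1 in the hippocampus with DESeq2, with the likelihood ratio test and in one fit of all 20 libraries. Leaving out single libraries gave counts of 0 to 1 in both regions. Over all genes, the count called in the neocortex was 26, but 9 with RIN as a covariate, 12 under the replicate block, 42 without the filter, 133 without library 5, 167 with the likelihood ratio test and 221 with DESeq2. In the hippocampus it was 67, but 36 with RIN, 189 in one fit, 259 with the likelihood ratio test and 331 with DESeq2. The upper minus deep difference between regions of controls, 0.89, was 1.53 with the median over members, and that between the genotypes in the neocortex, -0.09, was -0.21.

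Estimates near 0 changed sign. Tbr1 in the neocortex, 0.01, was -0.0012 without the filter and -0.0044 under the replicate block, and without the libraries with embryonic genes Cux1 in the hippocampus was -0.035, Fezf2 there 0.0029 and Rorb for the interaction -0.0064. With single libraries left out, the ranges that crossed 0 were -0.049 to 0.092 for Tbr1 and -0.014 to 0.088 for Tle4 in the neocortex, and -0.035 to 0.097 for Cux1, -0.035 to 0.16 for Cux2, -0.22 to 0.0029 for Fezf2 and -0.10 to 0.0089 for Bcl11b in the hippocampus. Tle4 between regions of controls ranged from -0.078 to 0.013. For the interaction they were -0.071 to 0.055 for Bcl11b, -0.032 to 0.17 for Cux2, -0.034 to 0.12 for Rorb, -0.25 to 0.0016 for Fezf2 and -0.75 to 0.20 for Foxp2. The cause was not tested.

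Samples of one number were not shown to be paired: deviations from the group means correlated at 0.129 to 0.334 between the regions of controls (best with the own number in 5 of 5) but at -0.07 to 0.396 in cTKO mice (3 of 5), -0.009 to 0.221 between genotypes in the neocortex (4 of 5) and -0.14 to 0.140 in the hippocampus (1 of 5). Between the regions of cTKO mice, numbers 1, 2 and 3 were at 0.345, 0.319 and 0.396, and numbers 4 and 5 at -0.057 and -0.071. Hippocampal library 4 and neocortical library 5 are those with embryonic transcripts. Whether Xist was expressed matched between the regions for 10 of 10 numbers, a hint from the data and not from the design. Under the replicate block, 0 members were called between genotypes in either region, 7 and 9 between regions, and 0 for the interaction. With 5 libraries a group, the neocortical intervals of the genotype difference reached farthest for Fezf2 (to -0.46) and Foxp2 (to 0.61).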
